A study of Sus scrofa with 24 samples.

Results

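The 9 genes described here encode proteins of the synaptic vesicle and of the machinery that releases its content, and their transcripts were measured in the hippocampus of 14-day-old piglets. They were taken by symbol from the 38882 genes listed for each library, and all 9 passed the filter on low counts that 16326 genes passed. RNA was sequenced from 24 piglets in 4 groups of 6. AGA CON and AGA HF piglets were born at a weight appropriate for gestational age (AGA) and were fed a control formula (CON) or a hydrolyzed fat formula (HF). SGA CON and SGA HF piglets were born small for gestational age (SGA) and were fed the same formulas. Each SGA piglet was paired with an AGA piglet of the same sex and litter that was fed the same formula, which gave 12 litters, 6 on each diet. Piglets of different size shared litters, whereas diets differed between litters. The main edgeR model held no litter term, so size was also compared within litters and diet over litter means. Litters came in 2 cohorts of 6, with 3 litters of each diet in each cohort. Of the 12 litters, 6 gave male pairs and 6 gave female pairs. SGA status rested on birth weight alone, and whole hippocampus was used. In such bulk tissue, fewer cells of a type and less RNA per cell cannot be told apart.

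Neurons store transmitter in small vesicles that gather at the presynaptic membrane and fuse with it when calcium enters. SYN1 and SYN2 encode synapsins, which tether vesicles into a reserve cluster. SYP encodes synaptophysin, an abundant protein of the vesicle membrane, and SV2A encodes a vesicle glycoprotein that is the binding site of the antiepileptic drug levetiracetam. SLC17A7 encodes VGLUT1, the transporter that loads glutamate into vesicles of excitatory neurons, such as the pyramidal and granule cells of the hippocampus. VAMP2 on the vesicle, with STX1A and SNAP25 on the plasma membrane, forms the SNARE complex that drives fusion. SYT1 encodes synaptotagmin-1, the calcium sensor that triggers it. Synapses form in large numbers in the hippocampus around birth, and transcripts of this set are widely used as an index of neuronal and synaptic content.

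Positions are given on the Sscrofa10.2 assembly that the deposited counts use, and values were counted on exons only. SYN1 (gene 100216310) lies on chromosome X from 47336634 to 47388655 on the plus strand with 13 exon intervals, and SYP (100512029) on the same chromosome from 48080132 to 48094682 on the minus strand with 7. SYN2 (100626060) lies on chromosome 13 from 75262707 to 75435410, plus strand, with 11 exon intervals. SV2A (100156610) lies on chromosome 4 from 108567034 to 108581274, minus strand, with 13. SLC17A7 (100514772) lies on chromosome 6 from 50240102 to 50250578, minus strand, with 12. SYT1 (100513599) covers 520 kb of chromosome 5, from 106815507 to 107335980, minus strand, with 11. VAMP2 (100620549) covers 3.82 kb of chromosome 12, from 55853614 to 55857435, minus strand, with 5. STX1A (100512594) lies on chromosome 3 from 10670296 to 10688032, minus strand, with 10, and SNAP25 (100620588) on chromosome 17 from 21669084 to 21703714, plus strand, with 7. No other listed gene shared exon bases with any of the 9 on the same strand, the strand on which reads were counted.

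Total counts per library ranged from 6017336 to 9284355, and the members were deeply covered, from 562 counts of SYN2 to 33892 counts of SLC17A7 in a single library. Values below are CPM, counts scaled to a common library size after TMM normalization. Of the 24 libraries, 3 stood apart in these genes. AGA CON replicate 2 had the lowest level of all 9 genes among the 24 libraries. AGA HF replicate 4 was lowest in its group in 8 of 9. SGA CON replicate 6 had the highest level of the 24 libraries in 5 of 9. The main results are also given without these libraries, and these repeats were added after the values were seen.

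All 9 genes were strongly expressed. Per kb of exon, the order of mean levels was VAMP2, SLC17A7, SYP, SYN1, SNAP25, SYT1, SV2A, STX1A and SYN2. VAMP2 had 1295 ± 305 CPM per kb (SD, n = 24), SLC17A7 had 1131 ± 217, SYP had 929 ± 160 and SYN1 had 585 ± 111. SNAP25 had 429 ± 59.6 CPM per kb and SYT1 had 212 ± 33.5. SV2A had 115 ± 18 CPM per kb, STX1A had 102 ± 22.6 and SYN2 had 72.9 ± 14.7. Without the length correction, SLC17A7 ranked 10th among the 16326 genes by mean CPM, VAMP2 16th, SYP 20th and SYN1 41st, and SYN2, the lowest of the set, ranked 1139th.

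**Figure D1:**
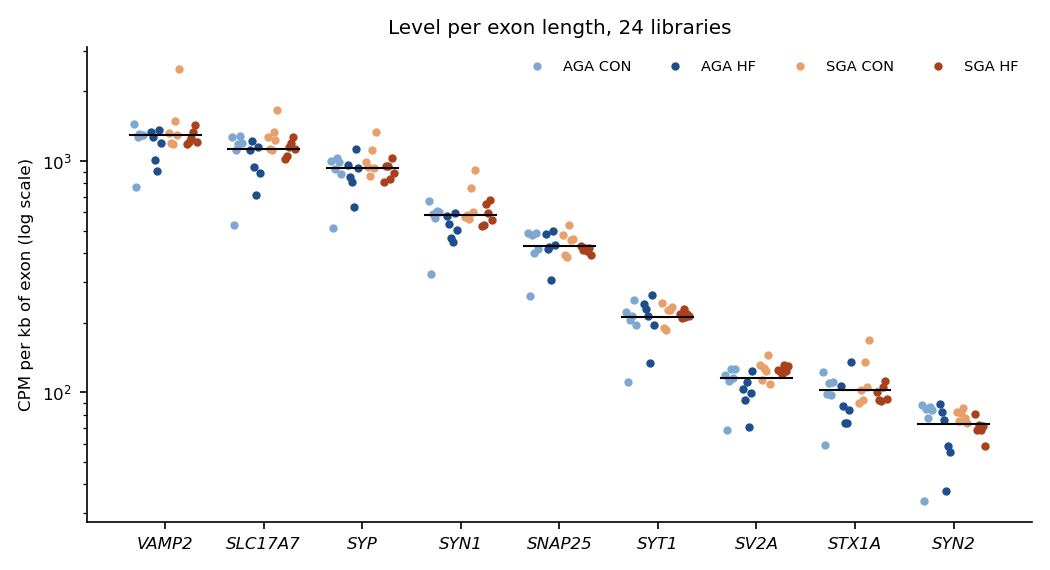
CPM per kb of exon on a log axis for each of the 24 libraries, coloured by group, with the mean over all libraries as a black line. The genes are ordered by mean level from VAMP2 at 1295 CPM per kb to SYN2 at 72.9, and the spread of SV2A overlaps that of STX1A.

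The order was steady across piglets with few exceptions. VAMP2 was above SLC17A7, SYP above SYN1, SYN1 above SNAP25, SNAP25 above SYT1, and SYT1 above SV2A in 24 of 24 libraries. VAMP2 exceeded SLC17A7 by a mean of only 1.14-fold per kb, ranging from 1.01 to 1.51. SLC17A7 was above SYP, and STX1A above SYN2, in 23 of 24 libraries. SV2A and STX1A were in this order in 18 of 24 libraries only, at a mean ratio of 1.14 per kb that ranged from 0.647 to 1.52, so these neighbours did not differ beyond the spread between libraries. The step between SNAP25 and SYT1, which averaged 2.03-fold per kb, was the widest between neighbours. It rests on the deposited exon lengths of 1896 bases for SNAP25 and 4644 bases for SYT1, and the SNAP25 model may be incomplete. Both act at the moment of fusion, SNAP25 as part of the SNARE bundle and SYT1 as its calcium sensor.

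The members rose and fell together across the 24 libraries, and less so without the 3 libraries that stood apart. Pearson correlations of log2 CPM over the 36 pairs of members ranged from 0.46 to 0.93, with a median of 0.73, as a description of libraries that share tissue and normalization. SYN1 and VAMP2 were closest at 0.93, and SNAP25 and SYT1 had 0.91. SV2A and VAMP2, at 0.46, were the least alike. Over the other 21 libraries the median fell to 0.35, and 6 of 36 pairs were negative. SYN1 with VAMP2 still had 0.85, SYN1 with SLC17A7 0.80 and SNAP25 with SYT1 0.68. SV2A had −0.32 with SYT1 and 0.15 with SYN1 over these 21 libraries. The coefficient of variation over all libraries lay between 13.9% for SNAP25 and 23.5% for VAMP2. Over the 21 libraries it lay between 8.36% for VAMP2 and 15.1% for STX1A.

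**Figure D2:**
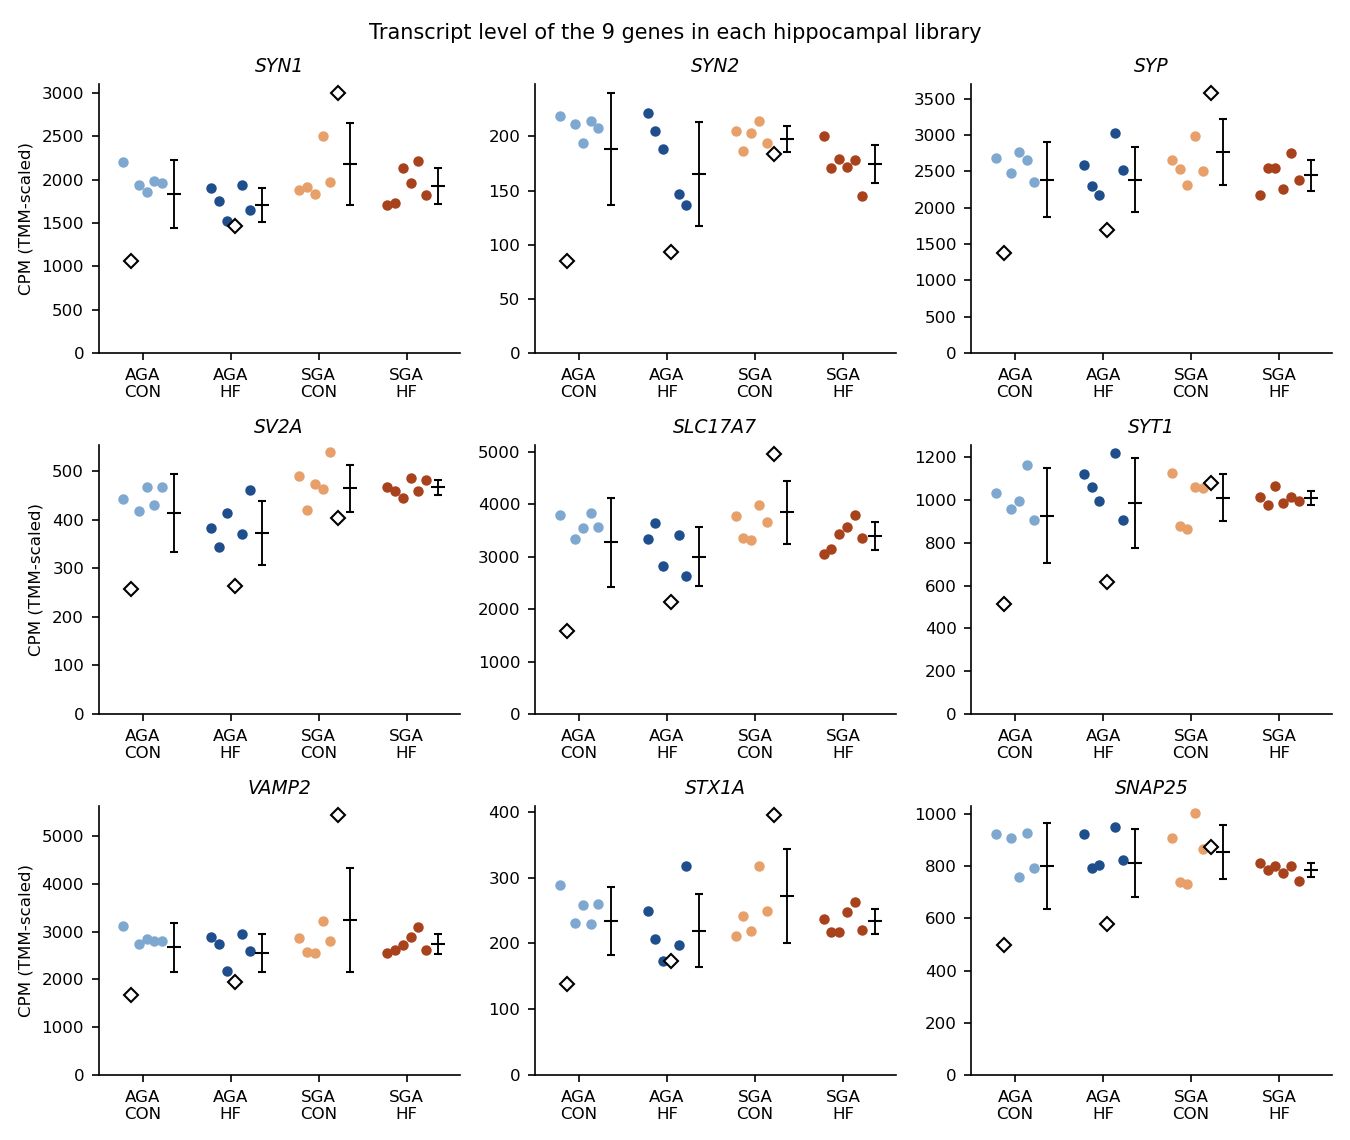
CPM of each gene in the 6 libraries of each group, with the mean and SD beside them in black, on axes that start at 0. Open diamonds mark AGA CON replicate 2, AGA HF replicate 4 and SGA CON replicate 6, which lie at the ends of their groups in most panels.

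In AGA CON replicate 2 the 9 genes stood at 0.444 (SYN2) to 0.618 (SNAP25) of their median over the 24 libraries. SLC17A7 had 1577 CPM there, against 3341 to 3840 CPM in the other 5 AGA CON libraries. Neuron markers were low in the same library, with 13 of 13 below their medians and a summed level of 7009 CPM, against 8625 to 14896 CPM in the other 23 libraries. Astrocyte markers (8 of 8) and microglia markers (8 of 8) were above their medians, at summed levels of 14177 and 342 CPM, both the highest of the 24 libraries. In AGA HF replicate 4 the 9 genes stood at 0.490 (SYN2) to 0.768 (SYN1) of their medians, 12 of 13 neuron markers were below and 7 of 8 astrocyte and 9 of 9 oligodendrocyte markers above. No marker of these cell types was at 0 in any group. The part of cell composition in these levels was not tested.

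SGA CON replicate 6 differed in kind, since only some members were high. VAMP2 reached 5434 CPM there, 1.96 times its median, STX1A 1.69 times, SYN1 1.57 times, SLC17A7 1.45 times and SYP 1.42 times. SNAP25 and SYT1 were near their medians at 1.09 and 1.08 times, SYN2 was at 0.960 and SV2A at 0.893. In this library 8 of 13 neuron markers were above their medians, 7 of 8 astrocyte and 8 of 9 oligodendrocyte markers were below, and 6 of 6 inhibitory neuron markers were above. Over the 7588 genes with a mean log2 CPM above 4, 13.2% lay more than 0.5 log2 units from their median in this library and 15% in AGA CON replicate 2, against 8.76% in AGA HF replicate 4 and 0.975% to 5.25% in the others.

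The effect of size addresses whether SGA piglets differ from AGA littermates in the hippocampal transcriptome. Of the 9 genes, SV2A and SYN1 were up-regulated in SGA piglets at an FDR p under 0.4, the threshold of the heat map in the study, and none was down-regulated (edgeR's quasi-likelihood test with Benjamini-Hochberg adjustment over 7 contrasts). Of all genes tested, 0.478% were called for size in either direction. The median log2 fold change of the 9 genes was 0.06, beside −0.00 over all genes, and 6 of 9 were above 0. SV2A, SYN1 and SLC17A7 had an unadjusted p under 0.05, as did 10.6% of all genes. The expected share of false calls is held to 40% at most over the 7 contrasts pooled, not for size by itself, which limits each single call. With size adjusted by itself, edgeR gave an FDR p of 0.0974 for SV2A, 0.149 for SYN1 and 0.232 for SLC17A7. The other members did not pass there, and 7.35% of all genes were called.

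SV2A, the vesicle glycoprotein, was the clearest. It had 257, 436 and 468 CPM as lowest, median and highest in AGA CON, and 264, 377 and 460 CPM in AGA HF. In SGA CON it had 404, 467 and 538 CPM, and in SGA HF 445, 463 and 486 CPM. The SGA HF libraries were tightly grouped and above 5 of the 6 AGA HF libraries, while the groups of the 2 sizes overlapped. Means were 465 ± 34.5 CPM in SGA and 393 ± 73.1 CPM in AGA piglets (SD, n = 12 each). The log2 fold change was 0.18 ± 0.04 (SE), with an FDR p of 0.311 by edgeR. Within litters SV2A was higher in the SGA piglet in 10 of 12, by a mean of 0.27 ± 0.09 on the log2 scale (SEM), and the exact sign-flip test over 12 litters gave p = 0.00781 (two-sided, smallest possible 0.000488). By that test 12.6% of all genes had p under 0.05, and 3 of the 9 members did. The exceptions for SV2A were litter 8, at −0.02, and litter 12, at −0.21, which holds SGA CON replicate 6. With litter as a block and no surrogate variables, the edgeR log2 fold change was 0.26 ± 0.08 with an FDR p of 0.341.

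The higher SV2A level was also seen without the 3 libraries. In that fit, which called 0.587% of all genes, the log2 fold change was 0.16 ± 0.04 with an FDR p of 0.324 by edgeR. Without the 3 litters they belong to, SV2A was higher in the SGA littermate in 8 of 9, by 0.20 on the log2 scale (exact sign-flip test, p = 0.00781). The blocked edgeR fit over these 9 litters gave 0.20 ± 0.05 with an unadjusted p of 0.00198 and an FDR p of 0.672, so the call was lost with fewer litters while the estimate was of like size. In cohort 1 SV2A was higher in 6 of 6 SGA littermates, by 0.31 (exact sign-flip p = 0.0312, the smallest 6 litters allow), and in cohort 2 in 4 of 6, by 0.23 (exact p = 0.188). The call was lost in the edgeR model without surrogate variables, at 0.24 with an FDR p of 0.790, where 0.0796% of all genes were called. It was also lost when litter 1, 6, 7, 9 or 10 was left out, with log2 fold changes between 0.17 and 0.28 over the 12 litters left out in turn.

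SYN1, the more abundant synapsin, had 1066, 1950 and 2200 CPM as lowest, median and highest in AGA CON and 1465, 1700 and 1942 CPM in AGA HF. It had 1831, 1943 and 3001 CPM in SGA CON and 1706, 1888 and 2218 CPM in SGA HF. The medians of the CON groups were close, and the highest values were both in SGA CON, replicates 6 and 4. The mean was 2055 ± 372 CPM in SGA and 1769 ± 304 CPM in AGA piglets (SD, n = 12 each), with a log2 fold change of 0.16 ± 0.04 and an FDR p of 0.395 by edgeR. SYN1 was higher in 7 of 12 SGA littermates, by a mean of 0.22 ± 0.10 (SEM; exact sign-flip test, p = 0.0449). With litter as a block the edgeR estimate was 0.22 ± 0.09 and the call was lost (FDR = 0.523). Without the 3 libraries the model with surrogate variables still called SYN1, at 0.15 ± 0.04 (FDR = 0.328). Without the 3 litters SYN1 was higher in only 4 of 9 SGA littermates, by 0.09, and the exact sign-flip test gave p = 0.344. The edgeR call was lost when litter 1, 6, 9 or 10 was left out.

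SYN2, the other synapsin, did not follow SYN1. It had 84.6, 210 and 219 CPM as lowest, median and highest in AGA CON, 93.6, 168 and 222 CPM in AGA HF, 183, 198 and 214 CPM in SGA CON and 145, 175 and 201 CPM in SGA HF. The lowest libraries of the AGA groups were AGA CON replicate 2 and AGA HF replicate 4, and the medians of the SGA and AGA groups were close. The log2 fold change for size was −0.02 ± 0.07 with an FDR p of 0.978 by edgeR. The SGA littermate was higher in 5 of 12 litters, by a mean of 0.13 that became −0.03 without the 3 litters (exact sign-flip p = 0.398 and 0.613).

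SLC17A7, the glutamate transporter of the vesicle, had 1577, 3552 and 3840 CPM as lowest, median and highest in AGA CON and 2138, 3083 and 3636 CPM in AGA HF. In SGA CON it had 3322, 3728 and 4956 CPM, and in SGA HF 3056, 3399 and 3806 CPM. Apart from the libraries that stood apart, the values of the 4 groups overlapped broadly. Its log2 fold change for size was 0.14 ± 0.04, with an unadjusted p of 0.00358 and an FDR p of 0.506 by edgeR, which did not pass. It was higher in 7 of 12 SGA littermates, by 0.24 ± 0.11 (SEM; exact sign-flip p = 0.0454), and in 4 of 9 without the 3 litters, by 0.06 (exact p = 0.363). SLC17A7 passed in edgeR when AGA CON replicate 2 was left out, with an FDR p of 0.329, and when SGA CON replicate 6 was left out, with an FDR p of 0.296. It did not pass without AGA HF replicate 4 (FDR = 0.488), without all 3 libraries (FDR = 0.520) or with litter as a block (FDR = 0.542).

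**Figure D3:**
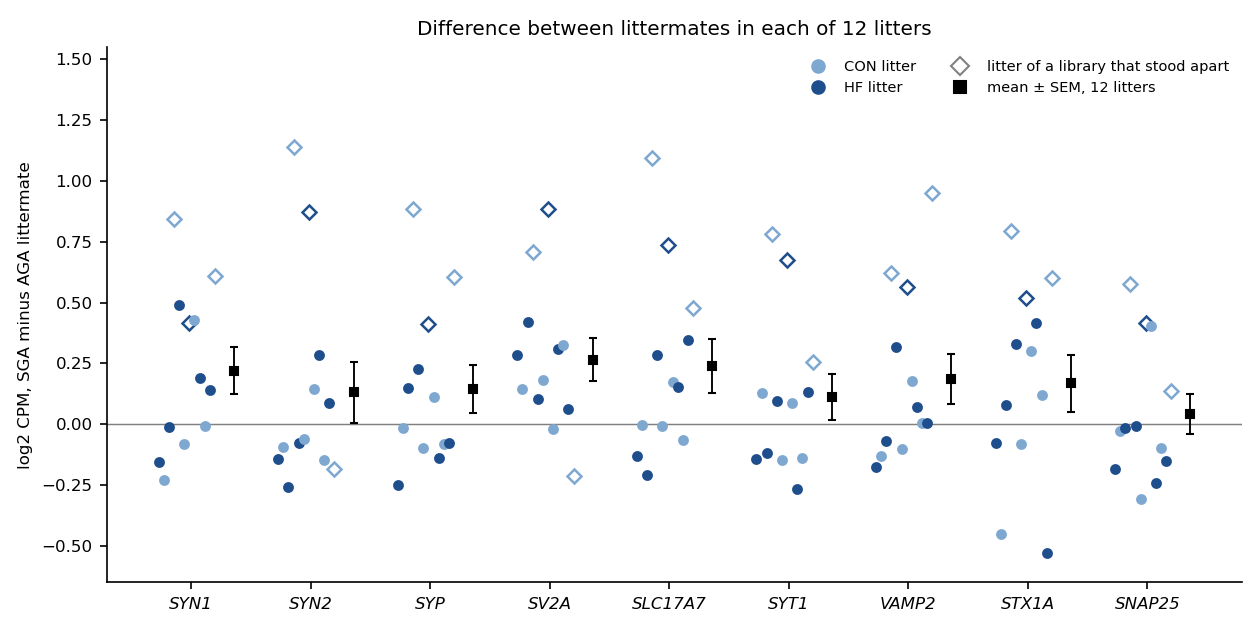
Difference in log2 CPM between the SGA and the AGA piglet of each of the 12 litters, for each gene, with the mean and SEM in black. The litters of the 3 libraries that stood apart are drawn as open diamonds and hold most of the largest positive differences, while SV2A stays above 0 in 8 of the 9 other litters.

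SYP, the vesicle membrane protein synaptophysin, had a size log2 fold change of 0.07 ± 0.05 and an FDR p of 0.846 by edgeR. Its group means ran from 2383 CPM in AGA HF to 2764 CPM in SGA CON, with SDs from 217 to 518 CPM. It was higher in 6 of 12 SGA littermates, and the exact sign-flip test gave p = 0.182. SYT1, the calcium sensor, had 0.05 ± 0.04 (FDR = 0.883) and was higher in 7 of 12 litters. Its 6 SGA HF libraries lay between 975 and 1066 CPM, a narrower range than the 619 to 1220 CPM of AGA HF.

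The SNARE genes showed no size difference that passed. VAMP2, the vesicle SNARE, had a log2 fold change of 0.06 ± 0.03 with an FDR p of 0.761 by edgeR, and it was higher in 8 of 12 SGA littermates (exact sign-flip p = 0.103). In cohort 2 it was higher in 6 of 6 litters, by 0.30 (exact p = 0.0312), and in cohort 1 in 2 of 6, by 0.08. Litters 7 and 12, which hold 2 of the libraries that stood apart, are in cohort 2. Without them VAMP2 was higher in 4 of 4 litters, by 0.06 with a range from 0.0047 to 0.18 (exact sign-flip p = 0.125, the smallest 4 litters allow). STX1A, the plasma membrane syntaxin, had −0.01 ± 0.06 (FDR = 0.985) and SNAP25 had −0.01 ± 0.04 (FDR = 0.988). SNAP25 was higher in 4 of 12 SGA littermates, and its SGA HF libraries lay between 742 and 810 CPM.

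The members differed in how their size estimates changed when libraries and litters were left out. The 3 libraries were picked by the levels of these same genes, low in 2 AGA libraries and high for some members in SGA CON replicate 6. Lower estimates without their litters thus followed in part from the choice. For SV2A, litters 4 and 7 had 0.71 and 0.88 and litter 12 had −0.21. In the edgeR fit with litter as a block, all 9 log2 fold changes were above 0, from 0.04 for SNAP25 to 0.26 for SV2A, with a median of 0.17, and 1 of 9 was called, beside 2.57% of all genes. Over the 9 litters without the 3 libraries, the same model gave a median of 0.01. Of the 9 members, SV2A alone then had an unadjusted p under 0.05, as did 8.49% of all genes, and the other 8 estimates lay between −0.06 (SNAP25) and 0.08 (SYN1).

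**Figure D4:**
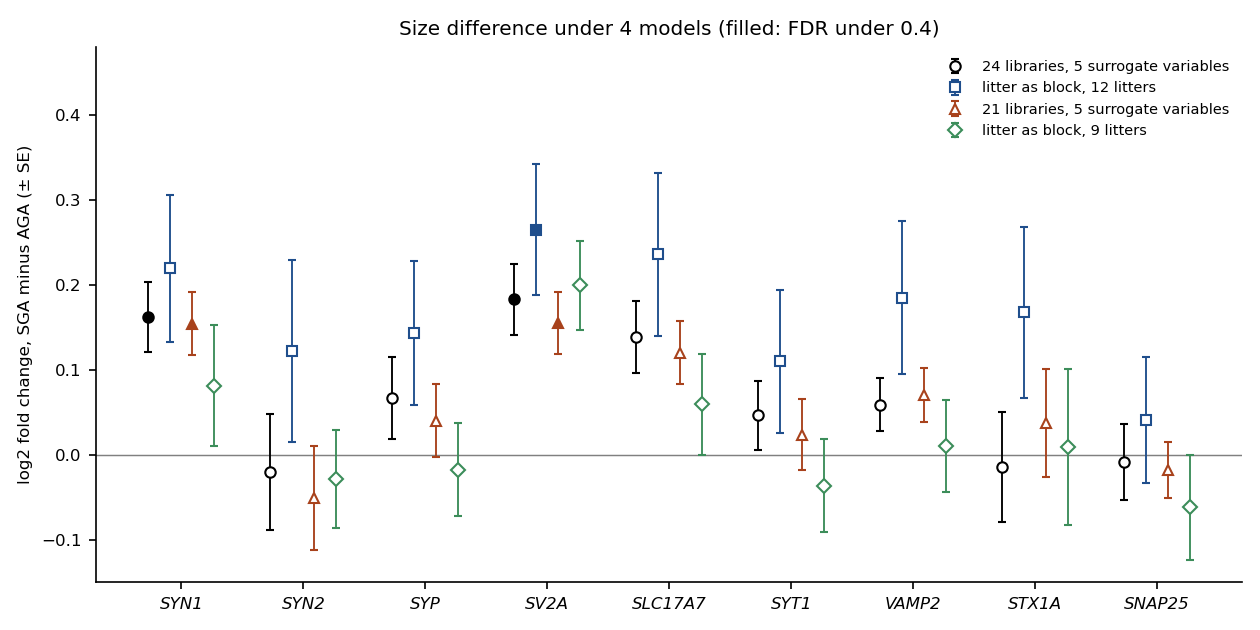
Log2 fold change of SGA minus AGA with its standard error for each gene in 4 edgeR models, with filled symbols for an FDR p under 0.4. SV2A lies between 0.16 and 0.26 in all 4, while the other genes lie between −0.06 and 0.08 when litter is a block and the 3 litters are left out.

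The effect of diet addresses whether the HF formula altered hippocampal transcripts. None of the 9 genes was called for diet by edgeR, which called 0.159% of all genes. None had an unadjusted p under 0.05, as 7.09% of all genes did. DESeq2 and limma voom called none of the 9 either, and 0.539% and 0.0613% of all genes. The log2 fold change of HF minus CON was below 0 in 8 of 9, from −0.08 for SYN1 and SYN2 to −0.01 for STX1A, and SYT1 had 0.05. VAMP2 came nearest, at −0.06 ± 0.03 with an unadjusted p of 0.0507 and an FDR p of 0.736 by edgeR. Compared over litters, with the mean of the 2 littermates as 1 value, differences ranged from −0.18 for SYN2 to 0.05 for SYT1. The smallest p was 0.277, for SYN2 (exact permutation test of 6 against 6 litters, two-sided, smallest possible 0.00216). By that test 4.1% of all genes had p under 0.05.

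This comparison turned on AGA CON replicate 2. It is a CON library that was singled out for its low level of these same 9 genes. Leaving it out raises the CON mean of each, so a downward shift of HF minus CON followed from the choice. Without that library, 6 of 9 members were called lower in HF by edgeR: SYN2 at −0.27, SLC17A7 at −0.19, SV2A at −0.18, SYN1 and SYP at −0.14 and VAMP2 at −0.12, with FDR p between 0.180 and 0.370. Of all genes, 2.56% were then called, and 1.72% were called lower. With litter 4 left out as a whole, 4 of 9 members and 1.46% of all genes were called, and with litter 5 left out 3 of 9 and 4.66%. Without its litter, the exact permutation test over 6 HF and 5 CON litters gave p = 0.0130 for SLC17A7, 0.0195 for SYN1, 0.0390 for SYN2, 0.0411 for SV2A and 0.0498 for VAMP2. The other 4 members had p between 0.0801 (STX1A) and 0.665 (SYT1), and 6.2% of all genes had p under 0.05 by this exact test. Without all 3 libraries none of the 9 was called for diet by edgeR, beside 0.216% of all genes, with 6 of 9 at an unadjusted p under 0.05 and all 9 below 0 at a median of −0.11. Of all genes, 6.96% had an unadjusted p under 0.05 in that fit.

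SYN2 was lower in HF piglets of cohort 2. Its 6 HF piglets of cohort 2 had 93.6 to 179 CPM and its 6 CON piglets 183 to 214 CPM, with no overlap, as was so for 0.221% of all genes. That share counts littermates as separate, although they share a diet. Taken as 3 against 3 litters, the litter means of SYN2 did not overlap either, as was so for 8.97% of all genes. In cohort 1 the HF piglets had 171 to 222 CPM and the CON piglets 84.6 to 219 CPM, and these overlapped. The litter means differed by −0.49 on the log2 scale in cohort 2 and by 0.13 in cohort 1, and 3 against 3 litters cannot give an exact permutation p below 0.1, which cohort 2 reached. The difference between the cohorts in the diet effect was −0.56 ± 0.22 with an unadjusted p of 0.0200 and an FDR p of 0.812 by edgeR, and −0.52 over litter sums (unadjusted p = 0.0145). At an unadjusted p under 0.05 were 6.03% of all genes and 1 of the 9 members. The lowest HF value of cohort 2 was that of AGA HF replicate 4, and the lowest CON value of cohort 1 that of AGA CON replicate 2. Without the 3 libraries the HF piglets of cohort 2 had 137 to 179 CPM and the CON piglets 194 to 214 CPM, and in cohort 1 they had 171 to 222 and 187 to 219 CPM. The difference between the cohorts was then −0.32 ± 0.11 (unadjusted p = 0.00719, FDR = 1.00 by edgeR, beside 3.5% of all genes at an unadjusted p under 0.05). SLC17A7 litter means also did not overlap between the diets in cohort 2, at −0.33 (exact permutation p = 0.1), and 8.97% of all genes had litter means there that did not overlap. Without the 3 libraries the difference between the cohorts was −0.06 ± 0.11 for SLC17A7.

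**Figure D5:**
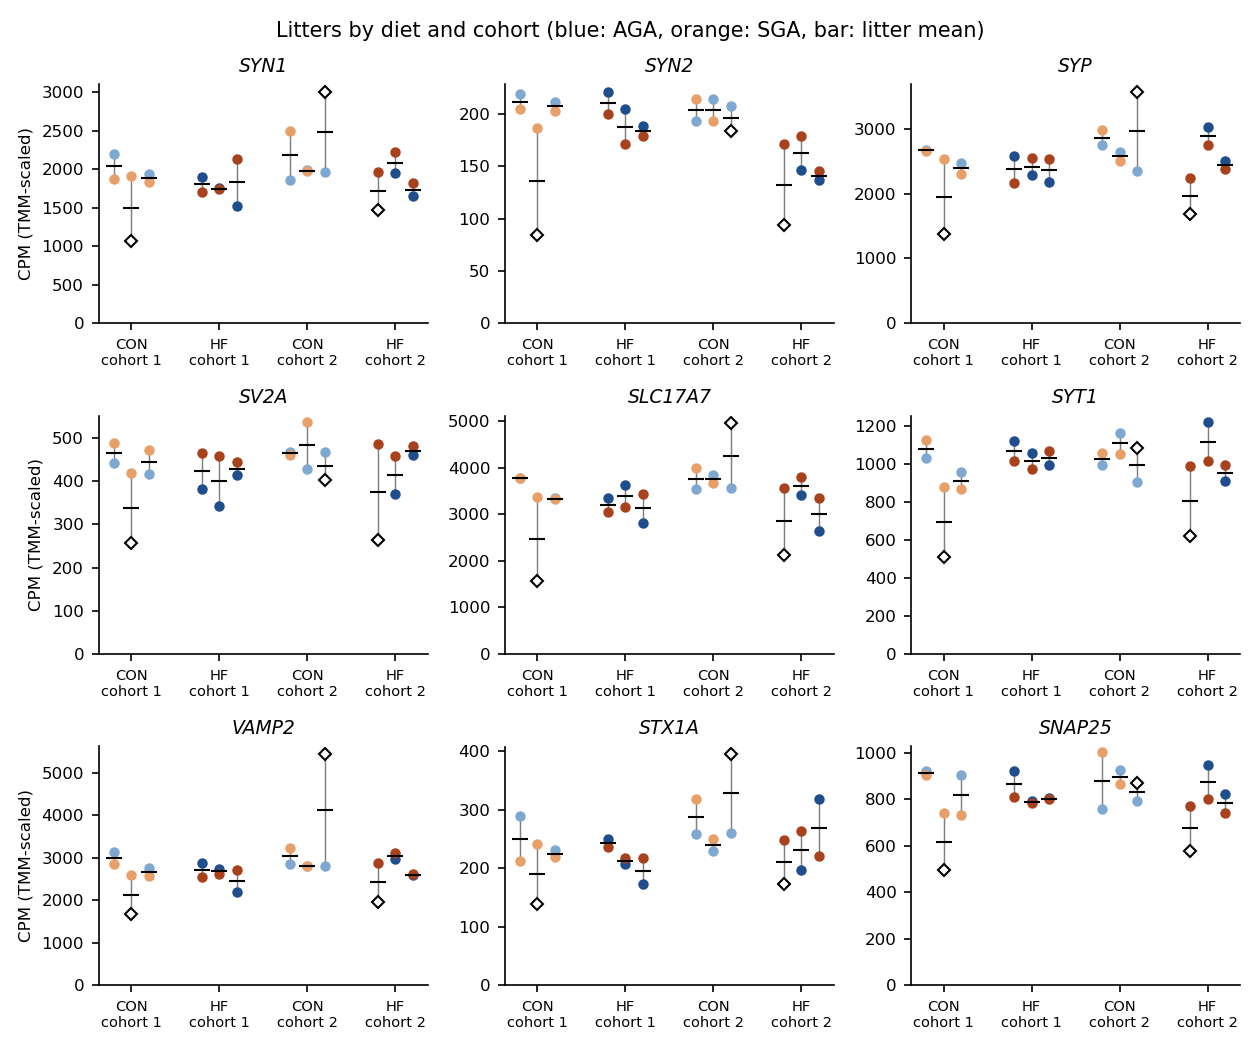
CPM of the 2 littermates of each litter, joined by a grey line with the litter mean as a black bar, by diet and cohort, on axes that start at 0 (blue AGA, orange SGA, open diamonds the 3 libraries that stood apart). For SYN2 the HF piglets of cohort 2 lie between 93.6 and 179 CPM, below all CON piglets of that cohort at 183 to 214 CPM.

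No member was called for the interaction of size and diet by edgeR, which called 0.049% of all genes, or by DESeq2. None had an unadjusted p under 0.05, as 4.01% of all genes did. Estimates ran from −0.07 for SNAP25 to 0.11 for SYN1, with standard errors from 0.06 to 0.13. The pairwise comparisons called none of the 9 either, beside 0.129% of all genes for size in CON, 0.288% for size in HF, 0.0674% for diet in AGA and 0.0919% for diet in SGA. SYN1 came nearest, with a log2 fold change of 0.22 ± 0.06 for size in HF piglets and an FDR p of 0.402 by edgeR. SV2A had 0.18 ± 0.06 for size in CON and 0.19 ± 0.06 for size in HF, with unadjusted p of 0.00504 and 0.00400. SYN1, SV2A, SLC17A7 and VAMP2 had an unadjusted p under 0.05 for size in HF, as did 8.02% of all genes, and SV2A had for size in CON, as did 6.59%. The difference between these comparisons is the interaction, which none of them passed. Leaving out AGA CON replicate 2 gave 5 calls among the members for diet in AGA, with 2.63% of all genes called. Between sexes, which were compared after the other results were seen, none of the 9 was called, beside 0.588% of all genes. SYP, at −0.14 (male minus female), and SV2A, at −0.12, had unadjusted p of 0.0321 and 0.0416 by edgeR, beside 7.72% of all genes under 0.05. Mean levels were 2394 CPM in males and 2593 CPM in females for SYP. For SV2A they were 437 and 421 CPM, the opposite direction to its model estimate. Sex differed only between litters, the model held no litter term, and sex was not tested over litters.

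The wider pathway held 136 other genes of the vesicle, the SNARE machinery, the active zone, endocytosis and vesicle filling, of which 126 were tested. None was called for size, diet or interaction in the edgeR model. For size, 17 had an unadjusted p under 0.05 and were higher in SGA piglets, 13.5% of those tested beside 5.6% of all genes, and 6 were lower. Their median log2 fold change was 0.02, and 73 of 126 were above 0. With litter as a block 4 were called higher and 1 lower by edgeR, beside 2.57% of all genes called and 1.05% called higher.

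Among 33 other vesicle proteins, 24 had a size log2 fold change above 0, with a median of 0.06. SYNGR1, a synaptogyrin of the vesicle membrane, had 368 ± 36.7 CPM in SGA and 301 ± 64.9 CPM in AGA piglets (SD, n = 12 each) and was higher in 11 of 12 litters. Its log2 fold change was 0.17 ± 0.05 (FDR = 0.512), and with litter as a block it was 0.31 with an FDR p of 0.319, which passed. SYT5, a further synaptotagmin, had 0.12 ± 0.04 (FDR = 0.517) and was higher in 9 of 12 litters. For diet, RAB3D, a small GTPase of secretory vesicles, had the smallest p of the list at 0.18 ± 0.07 (FDR = 0.611).

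Among 20 other SNAREs and fusion regulators, 14 had a size log2 fold change above 0, with a median of 0.02. An unadjusted p under 0.05 was found for 3, all higher in SGA piglets, beside 5.6% of all genes higher at that p. With litter as a block 1 was called higher by edgeR, beside 1.05% of all genes. For diet, 1 had an unadjusted p under 0.05 and was higher in HF piglets, and 2 were lower. In either direction 7.09% of all genes had such a p for diet.

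Among 20 active zone genes, which build the release site, 12 were above 0 with a median of 0.04. APBA2, an adaptor also known as Mint2, was higher in 11 of 12 SGA littermates, at 0.22 ± 0.07 (FDR = 0.528), and passed with litter as a block, at 0.27 with an FDR p of 0.391. BSN, the scaffold bassoon, was higher in 11 of 12, at 0.18 ± 0.07 (FDR = 0.626). LIN7A had the smallest p for diet, at 0.40 ± 0.14 (FDR = 0.581) on low levels of 5.83 ± 1.24 CPM in HF and 4.55 ± 0.79 CPM in CON piglets.

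Among 30 endocytosis genes, which recover vesicle membrane after release, 15 were above 0 with a median of 0.00. SH3GL3, or endophilin-A3, was lower in the SGA littermate in 12 of 12 litters, at 82.1 ± 8.27 against 102 ± 11.6 CPM (SD, n = 12 each). Its log2 fold change was −0.20 ± 0.05 with an FDR p of 0.402 by edgeR, just outside the threshold, and with litter as a block −0.31 with an FDR p of 0.0593. SYNJ1, the phosphatase synaptojanin-1, had 0.13 ± 0.04 for size (FDR = 0.573) and −0.11 ± 0.04 for diet (FDR = 0.655). Among 23 transporters and proton pump subunits, which energize and fill vesicles, 8 were above 0 with a median of −0.02. SLC6A17, a neutral amino acid transporter of vesicles, was higher in 10 of 12 litters, at 0.17 ± 0.06 (FDR = 0.559), and passed with litter as a block, at 0.32 with an FDR p of 0.342. ATP6V0C had 0.08 ± 0.04 for size (FDR = 0.712), and SLC18A3, the acetylcholine transporter, 0.46 ± 0.16 for diet (FDR = 0.581). SLC18A3 had 5.33 ± 2.40 CPM in HF and 5.18 ± 1.54 CPM in CON piglets. These means were close, unlike the estimate of the model, which held sex and surrogate variables.

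Beside these, 10 of 12 postsynaptic genes had a size log2 fold change above 0, with a median of 0.05. CAMK2A, the calcium-dependent kinase of the postsynaptic density, was the only gene of these and the marker lists called for size, diet or interaction in the edgeR model, at 0.13 ± 0.03 with an FDR p of 0.308. It was higher in 10 of 12 litters, at 3603 ± 272 against 3360 ± 302 CPM, and the call was lost with litter as a block (FDR = 0.690). SHANK1, a scaffold there, was higher in 11 of 12, at 0.16 ± 0.05 (FDR = 0.471), and had −0.12 ± 0.05 for diet (FDR = 0.609).

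Cell type markers were read beside the size result. Of 13 neuron markers, 9 were above 0 with a median of 0.06, and none was called by edgeR. MAPT, which encodes tau, had 0.09 ± 0.03 (FDR = 0.633), and NEFM, a neurofilament, had 0.23 ± 0.09 for size (FDR = 0.653) and −0.25 ± 0.09 for diet (FDR = 0.615). The summed level of neuron markers ranged from 7009 to 14221 CPM in AGA CON, 8625 to 13149 in AGA HF, 11725 to 14896 in SGA CON and 11869 to 13449 in SGA HF. Of 9 oligodendrocyte markers, 7 were below 0 for size with a median of −0.15. With litter as a block 3 were called lower, beside 2.57% of all genes called in either direction. CNP, a myelin enzyme, was lower in the SGA littermate in 12 of 12 litters, at 1644 ± 424 against 2194 ± 476 CPM. Its log2 fold change was −0.27 ± 0.11 (FDR = 0.648), and with litter as a block −0.42 (FDR = 0.0366). CLDN11 had −0.22 ± 0.11 for size (FDR = 0.725). MBP had −0.22 ± 0.10 for diet (FDR = 0.713), at 6557 CPM in HF and 6638 CPM in CON piglets, and −0.05 without the 3 libraries. The MBP means were close, unlike its estimate in the main model. For diet 1 of 9 oligodendrocyte markers was above 0 in the main model. Without the 3 libraries 6 of 9 were above 0, and 1 was called higher, beside 0.216% of all genes called.

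The summed level of oligodendrocyte markers ranged from 18162 to 23819 CPM in AGA CON, 13996 to 25383 in AGA HF, 12756 to 19506 in SGA CON and 11767 to 23055 in SGA HF. Their part in the difference of SV2A and SYN1 was not tested. Of 8 astrocyte markers, 3 were above 0 for size with a median of −0.03, and S100B had −0.14 ± 0.06 (FDR = 0.644). It was lower in 11 of 12 SGA littermates and passed with litter as a block, at −0.17 with an FDR p of 0.383. SOX9 had 0.13 ± 0.09 for size, and GFAP −0.11 ± 0.05 for diet (FDR = 0.713). Of 8 microglia, 4 endothelial, 6 inhibitory neuron, 2 choroid plexus and 4 meningeal fibroblast markers tested, none was called for size, diet or interaction by edgeR. The smallest p for size fell to C1QB, VIP, FLT1, TTR and COL1A2 in these lists. Of the choroid plexus and meningeal markers, the highest summed level in a library was 147 CPM and 112 CPM.

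The genes whose levels followed the mean of the 9 members most closely over the 24 libraries were neuronal membrane and signalling genes. They were ranked by Pearson's r of log2 CPM with the mean standardized level of the members, among genes with a symbol. CADM3, a synaptic adhesion molecule, had r = 0.98, MLLT11 0.98, YWHAH, a 14-3-3 protein, 0.97 and THY1, a surface glycoprotein of neurons, 0.97. Without the 3 libraries CADM3 ranked 3rd at 0.89, while YWHAH ranked 37th at 0.78 and THY1 44th at 0.77. None of these 4 was called for size, with log2 fold changes from 0.04 to 0.07 and FDR from 0.762 to 0.884 by edgeR.

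The nearest gene was also found for single members. SYN2 was closest to NPTX1, a secreted pentraxin of excitatory synapses (r = 0.91), and SYP to RAB3A, the GTPase of synaptic vesicles (0.94). SLC17A7 was closest to THY1 (0.97), SYT1 to RYR2, a calcium release channel (0.95), VAMP2 to SNU13 (0.98), STX1A to SNCB, or beta-synuclein (0.94), and SNAP25 to RTN3, a reticulon (0.92). SV2A, which was least like the other members, was closest to MAGED1, at 0.93 over 24 and 0.85 over 21 libraries. Without the 3 libraries none of these was still the nearest. NPTX1 and RTN3 then ranked 2nd, MAGED1 and SNCB 3rd, RAB3A 7th, RYR2 23rd, THY1 33rd and SNU13 36th, with r from 0.71 to 0.85. These values describe libraries that share tissue, normalization and the 3 libraries that stood apart.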

How the data were processed

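Per the file headers and the methods, the authors trimmed single-end reads of polyA-selected, stranded libraries with Trimmomatic 0.33, aligned them to Sscrofa10.2 with STAR 2.5.2a and deposited raw whole-number counts per Entrez gene from featureCounts (Subread 1.5.0), strand-aware on exons, with reads that align to several places left out. The paper gives an average RNA quality number only. RNA quality per library was not used here, and its part in the levels per kb of exon was not tested. The entry without an identifier (0.613% to 1.62% of counts) was left out. Symbols came from a name table of Sscrofa11.1, in which 23036 of 38882 genes matched. Total counts were 6017336 to 9284355, so 3 counts equal 0.323 to 0.499 CPM (counting error only).

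The test was run on the 16326 genes that reached 1 CPM in 3 or more libraries. Counts were fitted with edgeR 4.0.16 (quasi-likelihood, TMM) in R 4.3.3 on group, sex and 5 surrogate variables (sva 3.50.0). In this main model the Benjamini-Hochberg FDR covered 7 contrasts. Calls were made at 0.4, the threshold of the authors' heat map. The fit with litter as a block held litter and size within each diet, without surrogate variables. Its FDR covered size, the interaction and size in each diet, so its calls rest on another adjustment. For sex and for diet by cohort the FDR covered that contrast alone. The diet by cohort fits held no surrogate variables. The authors used limma voom, which was run as an alternative (limma 3.58.1), as was DESeq2 1.42.0. Log2 CPM used a prior count of 2. Littermate differences were tested by exact sign changes and diets by exact permutation of litter means. The scripts were tested on simulated data. The labels give pairs as littermates, and deviations of littermates from their group means correlated at a mean of 0.15 over 12 pairs, against 0.03 for other piglets of the same diet and cohort.

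The members and gene lists were chosen with earlier results of these data known. Of each other list, the text names genes called for size, diet or interaction, the 2 with the smallest p for size and the 1 for diet. Most alike genes were the 5 with the highest Pearson r and the nearest of each member. Other genes named with a call under the litter block are among these. Some genes that this rule picks are not reported here.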

Additional observations from a re-analysis of the deposited data

Results flagged for a closer look

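In 7 of 36 sets of a gene and a group, the lowest or the highest of the 6 libraries lay far from the rest by Dixon's criterion, which chance alone meets in about 5% of sets. In AGA CON replicate 2 these were SYN1 at 1066 CPM, SYN2 at 84.6 CPM, SYP at 1372 CPM, SV2A at 257 CPM, SLC17A7 at 1577 CPM and VAMP2 at 1677 CPM, all low. In SGA CON replicate 6 it was VAMP2 at 5434 CPM, which was high. AGA HF replicate 4, which the repeats also left out, did not meet the criterion for any member. The 7 sets are not independent, since 6 come from 1 library. The diet difference of SYN2 (HF minus CON) in cohort 2 was lower than that in cohort 1 by a log2 difference of −0.56, with an unadjusted p of 0.0200 and an FDR of 0.812 by edgeR.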

How the results depend on the processing

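Most results kept their direction and their side of the threshold under the alternatives, and the cause of the changes below was not tested. These include contrasts in which no member was called in the main model or in the alternatives. The 2 size calls were less steady. SV2A and SYN1 were each called for size in 17 of 30 alternatives, counting those that left out litters or libraries. For size, where 2 members were called, limma voom (0.325% of all genes), 2 surrogate variables (1.07%) and the litter block (replicate block, 2.57%) each called 1. A filter of 1 CPM in 6 libraries (0.276%), no surrogate variables (0.0796%) and a cohort term in their place (0.649%) each called 0. Either cohort alone, and leaving out the 3 libraries with no surrogate variables, called 0 of all genes. The litter block without the 3 litters called 0 members and 1 gene in all. In these last fits the count of 0 is not particular to the members. Adjusting each contrast alone called 3 members for size (7.35%). Leaving out 1 litter at a time gave 0 to 4 for size, size in HF, diet and diet in AGA, with 14 to 1259 of all genes called for size and 5 to 757 for diet. The 4 for size came without litter 5, where 7.75% of all genes were called. Leaving out AGA CON replicate 2 gave 3 for size (2.35% of all genes), 4 for size in HF (2.45%), 6 for diet (2.56%) and 5 for diet in AGA (2.63%). For size in HF, where none was called, RLE size factors, no filter and leaving out the 3 libraries each called 1, DESeq2 called 2 and adjusting each contrast alone called 3, with 0.255% to 1.44% of all genes called. Leaving out SGA CON replicate 6 called 3 (1.6%) and AGA HF replicate 4 called 1 (0.338%). The number of all genes called for size ran from 0 to 1200 beside 78, and for diet from 0 to 88 beside 26, over the alternatives that kept all litters or took 1 cohort. The litter block changed no other call among the members.

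Size estimates near 0 changed sign. SYN2 was 0.076 without surrogate variables, 0.11 with 2, 0.077 with a cohort term, 0.039 in cohort 1, 0.17 in cohort 2 and 0.12 with the litter block, and −0.044 to 0.12 with 1 litter left out. STX1A was 0.023 with no filter, then 0.15, 0.17, 0.14, 0.065, 0.23 and 0.17 in the same order, 0.037 without the 3 libraries, 0.0018 without them and with no surrogate variables, 0.0097 with the litter block without the 3 litters, and −0.018 to 0.11 with 1 litter left out. SNAP25 was 0.0013 with no filter, 0.023 without surrogate variables, 0.056 with 2, 0.023 with a cohort term, 0.060 in cohort 2 and 0.041 with the litter block, and −0.055 to 0.031 with 1 litter left out. Without the 3 libraries and with no surrogate variables SYP was −0.018 and SYT1 −0.051, and with the litter block without the 3 litters they were −0.017 and −0.036. Littermate means without the 3 litters were −0.029 for SYN2, −0.019 for SYP, −0.041 for SYT1 and −0.070 for SNAP25.

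Diet estimates turned in cohort 1, to 0.0083 for SYN1, 0.11 for SYN2, 0.050 for SYP, 0.029 for SV2A, 0.054 for SLC17A7, 0.032 for VAMP2 and 0.084 for SNAP25. Over litter means they were 0.016, 0.13, 0.059, 0.030, 0.070, 0.034 and 0.091 in the same order. SYT1 was −0.13 in cohort 2 and −0.0055 without the 3 libraries, and −0.15 in cohort 2 and −0.048 without the litter of AGA CON replicate 2 over litter means. STX1A was 0.0050 with 1 CPM in 6 libraries. With 1 litter or 1 of the 3 libraries left out, diet estimates ran from −0.18 to 0.0015 for SV2A, from −0.034 to 0.078 for SYT1 and from −0.17 to 0.0014 for STX1A. Counts of the members were high, so depth limited these results less than the spread between piglets.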
